A study of Mus musculus with 8 samples.

Results

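The miRNAs described here are the mouse miRNAs numbered 6896 to 7119 that were detected in the culture medium of primary myocytes. A miRNA of this number range was taken when it was detected on at least 2 of 8 Agilent mouse miRNA arrays, and 7 that met this condition were left out by name (miR-6913-5p, miR-6931-5p, miR-6957-5p, miR-7009-5p, miR-7043-5p, miR-7078-5p and miR-7084-5p). This gave 86 members, 85 of them 5p arms and 1 a 3p arm, among 410 miRNAs of the number range and 1881 mouse miRNAs on the array. Of the 86, 73 were detected on all 8 arrays and 13 on 2 to 7. The members were thus chosen by their detection on these same arrays, and by names set with group differences known, so their detection and their share of changed miRNAs are a description.

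A mirtron is a short intron, or the end of one, that folds into a miRNA precursor hairpin after splicing, so that the splicing machinery and not the Drosha complex sets an end of the hairpin. Dicer then cuts out the 5p and the 3p strand, and one of them is loaded into an Argonaute protein, where bases 2 to 8, the seed, pair with target mRNAs. Introns begin with GU and end with AG, and the pyrimidine-rich stretch before that AG becomes the 3p strand of a mirtron, opposite a purine-rich 5p strand. Many miRNAs with numbers in this range came from surveys of such hairpins, and targets in muscle are not established for most of them.

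The cells were primary myocytes from leg muscle of newborn mice (1 to 3 days) transgenic for human SOD1, in its wild-type form (hSOD1(WT), written WT) or with the G93A mutation of the amyotrophic lateral sclerosis model (hSOD1(G93A), written G93A). Cells in a bottom chamber and in an insert above it shared medium across a porous membrane, and each group is written as bottom chamber/insert: WT/WT (2 arrays), G93A/WT (3 arrays, mutant cells below and wild-type cells in the insert) and G93A/G93A (3 arrays). All groups therefore expressed a human SOD1, and no culture without the transgene was analysed here. All samples are of day 2 in vitro. The labels give a proliferation medium with 10% serum and a differentiation medium with 2% serum, and do not say which was collected. The RNA amount stated is 150 ng for every sample. Serum can hold RNA of another species, and medium without cells was not analysed here. The labels name each sample a biological replicate. All 8 arrays came from the same slide. The G93A/WT arrays lay beside WT/WT 1 in its row 1, the G93A/G93A arrays beside WT/WT 2 in its row 2, and no row held both kinds of mutant culture. In medium, fewer cells, less release per cell and less RNA per cell cannot be told apart. The muscle miRNAs miR-206-3p, miR-133a-3p, miR-133b-3p and miR-1a-3p were detected on all 8 arrays, while the neural miRNAs miR-124-3p and miR-9-5p were detected on none.

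Mature sequences were read from RefSeq (assembly GRCm38.p6), which held 77 of the 86 members. Those of miR-6935-5p, miR-6954-5p, miR-6970-5p, miR-6971-5p, miR-6980-5p, miR-6981-5p, miR-6982-5p, miR-7040-5p and miR-7042-5p are named only. The 5 brightest members with a sequence are shown first, with the seed in capitals, because runs of G recur in them and in most members.
miR-7047-5p: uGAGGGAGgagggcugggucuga
miR-7082-5p: uACGGGCAggaggaggggagg
miR-7045-5p: aGCGGGUGggggagggggacu
miR-7118-5p: uGGGGAAGgcgggagagggaac
miR-7018-5p: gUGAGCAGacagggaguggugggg

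A pair of hairpins shows where these strands lie in their precursors, written 5′ to 3′ with both mature strands in capitals. Mir7018, within the span of Hspg2 (the basement membrane proteoglycan perlecan), starts with GU and ends with AG, the letters at the ends of an intron. Whether it fills an intron of that gene was not read. Mir7082, within the span of Raver1 (an RNA-binding protein that acts with the splicing repressor PTB), ends with AG after its 3p strand but does not start with GU, and it is the one precursor whose arms are both among the members.
Mir7018: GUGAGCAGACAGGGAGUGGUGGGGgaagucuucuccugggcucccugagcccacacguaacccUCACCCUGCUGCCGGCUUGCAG
Mir7082: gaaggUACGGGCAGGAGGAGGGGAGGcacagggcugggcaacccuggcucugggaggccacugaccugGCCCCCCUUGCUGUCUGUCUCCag

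AG endings were general in this number range. Of 184 hairpins with a RefSeq sequence in the range, 171 (92.9%) ended with AG, against 60 of 768 other mouse hairpins (7.81%). GU starts were less common, at 28 of 184 (15.2%) against 48 of 768 (6.25%), and both ends together were found in 22 (12.0%) and 8 (1.04%). Among 74 hairpins of members, 73 ended with AG and 13 began with GU. Mir6973b was the exception at the 3′ end. All 75 members whose hairpin has a position in the table lay within the span of a protein-coding gene, as did 182 of 184 hairpins of the range (98.9%) and 440 of 768 others (57.3%). The table gives no strand for these genes, so a span here does not show that gene and hairpin are read in the same direction.

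The members were G-rich and purine-rich. Their median G content was 50%, against 40.9% for the 93 sequenced 5p arms of the range that were detected on no array and 26.1% for 1246 miRNAs outside the range. The 3p arms of the range had a median G content of 14.3% and a median C content of 40.9%, where members had 9.52% C. Purines made up a median of 72.7% of a member and 27.9% of a 3p arm of the range. The letters GGG occurred in 64 of 77 members (83.1%) and in 343 of 1246 miRNAs outside the range (27.5%). GGGG, which lies within the count of GGG, occurred in 33 (42.9%) and 109 (8.75%). Members were chosen by detection, so a closer set is the 370 sequenced miRNAs outside the range detected on at least 2 arrays. Their median G content was 31.8%, and GGG occurred in 167 (45.1%) and GGGG in 70 (18.9%). In the 93 undetected 5p arms of the range, GGG occurred in 64 (68.8%) and GGGG in 33 (35.5%). Of the 77, 10 began with GU as an intron does (13.0%, against 3.45% outside the range), and 7 of these began with GUGAG (9.09%, against 0.321% outside the range). The mirror image held for the 3p arms, of which 140 of 180 (77.8%) ended with AG and 122 (67.8%) with CAG.

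The members carried 74 different seeds, of which 3 were shared by a pair of members, AGGAGGA by miR-6916-5p and miR-6942-5p, GAGGGAG by miR-7047-5p and miR-6965-5p, and CCAGGGU by miR-6990-5p and miR-7032-5p. These pairs are printed because members with 1 seed can be compared with each other below.
miR-6916-5p: cAGGAGGAuggagaugaguca
miR-6942-5p: uAGGAGGAggggaacauuugc
miR-7047-5p: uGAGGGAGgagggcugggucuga
miR-6965-5p: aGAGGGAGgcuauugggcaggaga
miR-6990-5p: cCCAGGGUgagucagggcucu
miR-7032-5p: cCCAGGGUgguccccgagaggguggu
Another 6 members shared a seed with a tested miRNA outside the members. They were miR-7016-5p with miR-149-3p and miR-1943-5p, miR-6921-5p with miR-423-5p, miR-6922-5p with miR-705, miR-6960-5p with miR-8104, miR-7057-5p with miR-8119 and miR-7081-5p with miR-5110. The neighbours miR-6921-5p and miR-6922-5p both lay within the span of Srebf1, which encodes a transcription factor of lipid synthesis.

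Detection was almost confined to the 5p arm. Of 206 5p arms of the number range, 92 (44.7%) were detected on at least 2 arrays, of 204 3p arms 1 (0.490%). Among 203 precursors with both arms on the array, 90 had the 5p arm on at least 2 arrays and the 3p arm on none, 1 had both arms on at least 2 arrays, and 0 had the 3p arm alone. Outside the range the arms were detected in closer shares, 183 of 569 5p arms (32.2%) and 158 of 581 3p arms (27.2%). Of 162 precursors outside the range with a detected 5p arm, 41 also had the 3p arm, and another 94 had the 3p arm with the 5p arm on no array.

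G content moved with detection, and the part of G content in the difference between arms was not tested. Within the 5p arms of the range, 28 of 37 with more than 50% G were detected on at least 2 arrays, 39 of 86 with 40% to 50%, 15 of 50 with 30% to 40%, 0 of 6 with 20% to 30% and 0 of 3 with less. Outside the range the share also went up with G content, from 61 of 364 miRNAs with 20% G or less to 35 of 41 above 50%. Of the 3p arms of the range with 20% G or less, 1 of 138 was detected. Only 6 sequenced 3p arms of the range held more than 30% G, and 0 of these were detected on 2 arrays.

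**Figure D1:**
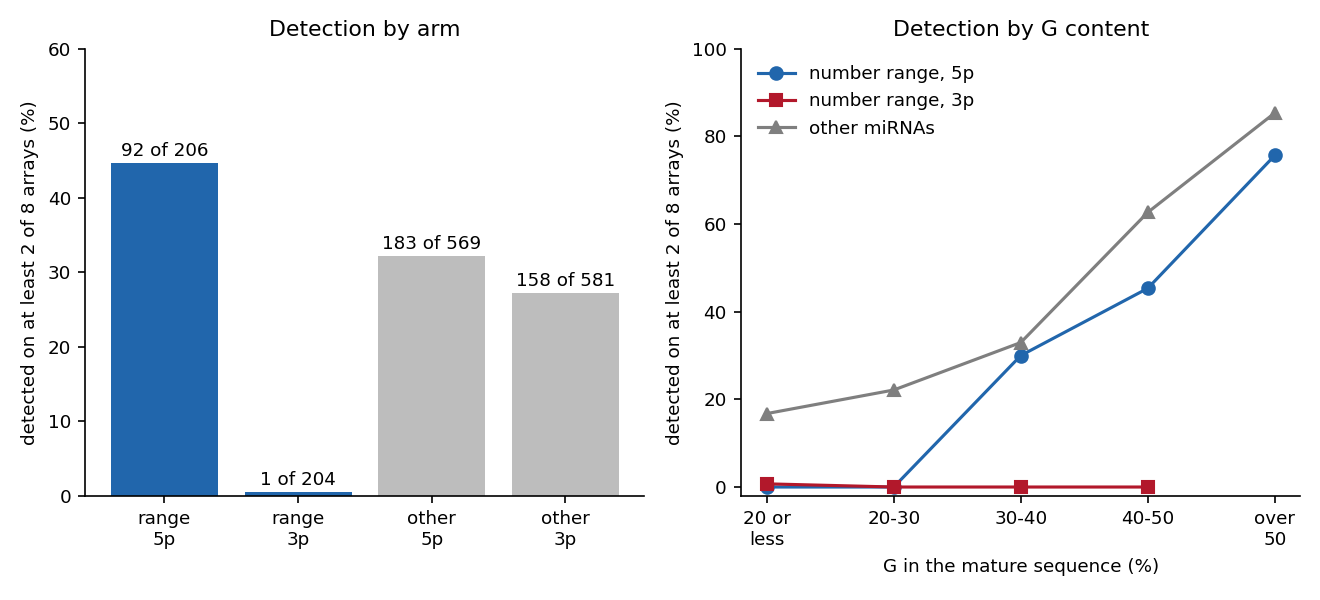
Left, share of miRNAs detected on at least 2 of 8 arrays for 5p and 3p arms of the number range 6896 to 7119 and outside it, with counts above the bars; right, the same share by G content of the mature sequence, with points for the 5p arms of the range, its 3p arms and all miRNAs outside it. The 5p bar of the range stands at 44.7% and its 3p bar at 0.490%, and the share goes up with G content outside the range and in the 5p arms but not in the 3p arms.

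Levels are given as log2 of the scaled array signal. Different probes respond differently, so the order of levels below is an order of signals and not of amounts. The brightest member, miR-7047-5p, had rank 11 among the 538 tested miRNAs. Its signal was 10.89 and 10.77 in WT/WT, 10.81, 10.74 and 10.68 in G93A/WT, and 11.05, 11.07 and 10.76 in G93A/G93A. The groups overlapped. miR-7040-5p followed with 10.12 and 9.94 in WT/WT, 10.24, 10.02 and 9.95 in G93A/WT, and 10.31, 10.50 and 10.20 in G93A/G93A. Next were miR-7082-5p (mean 9.70 over the 8 arrays), miR-7045-5p (9.58, within the span of the chromatin remodeller Chd4), miR-7118-5p (9.15, Plxnb2, a semaphorin receptor), miR-7018-5p (9.12), miR-6908-5p (8.88, Pdxk, which phosphorylates vitamin B6), miR-6978-5p (8.86, the complement gene C3), miR-7050-5p (8.82, Fxyd5) and miR-7036a-5p (8.52, Srrt).

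Of the next 8, 1 was called in a comparison, miR-6978-5p, which was higher in G93A/G93A than in G93A/WT and is described with that comparison. miR-7045-5p had 9.75 and 9.81 in WT/WT, 9.41, 9.27 and 9.36 in G93A/WT, and 9.84, 9.80 and 9.43 in G93A/G93A, with all G93A/WT arrays lowest. miR-7118-5p stayed between 9.06 and 9.26 on all 8 arrays. miR-6908-5p had a mean of 9.17 ± 0.24 in WT/WT (SD, n = 2), 9.04, 8.74 and 8.64 in G93A/WT, and 8.70, 8.90 and 8.73 in G93A/G93A. Its G93A/G93A arrays were below both WT/WT arrays, by a difference that was not called (-0.39, SE 0.16, adjusted p = 0.188). miR-7036a-5p had 8.72 and 8.62 in WT/WT against 8.36 to 8.54 on the other 6 arrays, and neither of its differences from WT/WT was called.

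These 10 gave 69.2% to 71.6% of the members' summed signal on an array, and 12 members had a mean above 8. Among the 73 members detected on all 8 arrays the mean ran from 2.20 to 10.85, with a median of 5.12. Their SD within a group had a median of 0.09 in WT/WT (n = 2), 0.10 in G93A/WT (n = 3) and 0.15 in G93A/G93A (n = 3), where 350 other miRNAs detected on all 8 arrays had 0.13, 0.13 and 0.19. Across the 66 of them with a sequence, signal went with G content at Spearman's rho = 0.394, against 0.268 across 293 other miRNAs, as a description over miRNAs that share arrays and are not independent.

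The members made up 6.72% and 6.84% of the summed signal in WT/WT, 7.81%, 8.05% and 7.45% in G93A/WT, and 8.03%, 7.67% and 7.77% in G93A/G93A. Both WT/WT arrays were below the other 6. These shares leave out miR-6931-5p, which was brighter than every member and is not a member by name. Its signal was highest in WT/WT, at 12.38 on each array, against 11.61 to 12.07 on the other 6. The order of the shares therefore holds for the members alone and not for the number range. The number of members detected was 75 and 77 in WT/WT, 82, 85 and 83 in G93A/WT, and 77, 76 and 79 in G93A/G93A, so every G93A/WT array held more than every other array. The G93A/WT arrays were also those with the most detected miRNAs of all (497 to 563, against 450 to 483 on the others) and the lowest scale factors (0.593 to 0.933, against 0.973 to 1.44). The part of overall brightness in the number of members detected was not tested.

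At the detection limit stood 4 members detected on exactly 2 arrays. miR-6963-5p was detected on G93A/WT 1 and 2 (1.26 and 1.99), miR-6981-5p on G93A/WT 2 and 3 (1.56 and 1.30), and miR-6923-5p and miR-7051-5p on G93A/WT 2 and G93A/G93A 1 (1.48 and 1.74, 1.09 and 1.92). An undetected miRNA is shown at the floor of 0.60. Just outside were 8 miRNAs of the range detected on 1 array. miR-6955-5p (2.12), miR-6968-5p (0.98), miR-7019-5p (1.23), miR-7035-5p (1.13) and miR-7063-5p (1.14) were detected on G93A/WT 2 alone, and miR-7029-3p (1.70), miR-7030-5p (2.06) and miR-7038-5p (3.13) on G93A/G93A 1 alone.

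For the comparison of groups, each member was tested with limma in 1 fit over all 538 tested miRNAs, and a member is called where its Benjamini-Hochberg adjusted p is under 0.05. Differences are in log2 signal with limma's moderated standard error (SE). Counts of called members stand beside the share called over all 538, and nothing is read from that setting side by side, since 7 miRNAs were taken out of the range by name. The 3 comparisons share arrays.

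Medium of cultures in which all cells carried G93A was compared first with WT/WT. In this comparison 5 members were called higher (background 3.72%) and 0 lower (background 4.83%, 8.55% in either direction), and 15 of the 86 had an unadjusted p under 0.05 (background 26.6%). The 5 were miR-7069-5p, miR-6938-5p, miR-7056-5p, miR-7080-5p and miR-6946-5p. Their sequences are printed because the result rests on them.
miR-7069-5p: uUGGGGGCcugggagggugacac
miR-6938-5p: uUGGAGCUagcuccagagagagu
miR-7056-5p: uGUGGAGGaggacagagagguu
miR-7080-5p: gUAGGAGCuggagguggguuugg
miR-6946-5p: aAAAGGGAgagaaagaaaugc

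miR-7069-5p, within the span of Farsa (a phenylalanyl-tRNA synthetase subunit), had a signal of 3.09 and 3.10 in WT/WT, 3.72, 3.65 and 3.63 in G93A/WT, and 4.03, 3.65 and 3.69 in G93A/G93A. Both WT/WT arrays were below the other 6, and the difference of G93A/G93A from WT/WT was 0.70 (SE 0.13, adjusted p = 0.0243). miR-7056-5p, within the span of Ptpn5 (a tyrosine phosphatase known from neurons), had 3.68 and 3.61 in WT/WT, 3.68, 3.77 and 3.82 in G93A/WT, and 4.34, 4.14 and 4.09 in G93A/G93A, with a difference of 0.55 (SE 0.11, adjusted p = 0.0294). All 3 G93A/G93A arrays were above the rest. miR-7080-5p, within the span of Cpne7 (a calcium-dependent membrane-binding copine), had 4.73 and 4.64 in WT/WT, 4.86, 4.89 and 4.90 in G93A/WT, and 5.02, 5.13 and 5.13 in G93A/G93A, with a difference of 0.41 (SE 0.09, adjusted p = 0.0433). Here the 3 groups were in order without overlap.

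miR-6938-5p, within the span of Mlh3 (a DNA mismatch repair and meiosis protein), had 6.70 and 6.81 in WT/WT, 6.59, 6.57 and 6.48 in G93A/WT, and 7.41, 7.35 and 7.16 in G93A/G93A. miR-6946-5p, within the span of Sec24c (a coat protein of vesicles that leave the endoplasmic reticulum), had 5.81 and 5.73 in WT/WT, 5.42, 5.43 and 5.39 in G93A/WT, and 6.29, 6.17 and 6.12 in G93A/G93A. In both, G93A/G93A was above WT/WT and G93A/WT below it on every array. G93A/G93A exceeded WT/WT by 0.55 for miR-6938-5p (SE 0.11, adjusted p = 0.0291) and by 0.42 for miR-6946-5p (SE 0.10, adjusted p = 0.0461).

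The median difference of the 86 members was 0.05, against -0.01 over all 538. G93A/G93A lay above WT/WT without overlap for 18 members (background 18.0%) and below it for 9 (background 22.7%). The calls were not stable to the arrays used, nor was the number called over all 538 (46 in the main fit). It was 31 without G93A/WT 2, 37 without G93A/WT 3, 24 without G93A/G93A 1, 22 without G93A/G93A 2, 36 without G93A/WT 1 and 57 without G93A/G93A 3. No member was called without G93A/WT 2, 1 without G93A/WT 3 or G93A/G93A 1, 3 without G93A/G93A 2, 4 without G93A/WT 1 and 6 without G93A/G93A 3. Without WT/WT 1 or WT/WT 2, 1 control array is left, and the members' median difference was 0.09 and 0.01. With the slide row as a block, which leaves WT/WT 2 as the only control, 0 members and 7 of 538 miRNAs were called, and the differences of the 5 were 0.69 (miR-7069-5p), 0.50 (miR-6938-5p), 0.58 (miR-7056-5p), 0.46 (miR-7080-5p) and 0.46 (miR-6946-5p), with adjusted p from 0.135 to 0.171. Scaling on the median also left 0 members called.

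The next comparison was of mixed cultures, mutant below and wild type in the insert, with WT/WT. miR-6990-5p, miR-7015-5p and miR-6907-5p were called higher in G93A/WT (background 3.16%) and miR-6960-5p and miR-6947-5p lower (background 0.743%, 3.90% in either direction). In all, 26 of the 86 members had an unadjusted p under 0.05 (background 24.5%).
miR-6990-5p: cCCAGGGUgagucagggcucu
miR-7015-5p: uCUGUGCAguaggcuguggguuc
miR-6907-5p: uUCUGGGAcacagggaggcucg
miR-6960-5p: cAGGAUGAgaagaguuuggcug
miR-6947-5p: cAUCCAGUggagaggcucgug

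miR-6990-5p, within the span of Esrra (the nuclear receptor ERR alpha, a regulator of mitochondrial genes), was detected on the 3 G93A/WT arrays alone, at 1.76, 1.41 and 1.56. It entered the table through that group, and its level in WT/WT and G93A/G93A has only a bound. G93A/WT was at least 1.73-fold higher than WT/WT, taking each WT/WT array's lowest detected signal as its level (adjusted p = 0.00562). miR-7015-5p had 2.44 and 2.17 in WT/WT, 3.45, 3.43 and 3.12 in G93A/WT, and 2.56, 2.68 and 3.15 in G93A/G93A, so both WT/WT arrays were below the other 6. G93A/WT exceeded WT/WT by 1.03 (SE 0.21, adjusted p = 0.046).

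miR-6907-5p, within the span of Rrp1 (a ribosomal RNA processing protein), had 2.39 and 2.25 in WT/WT, 3.08, 2.99 and 2.89 in G93A/WT, and 2.10, 2.13 and 2.43 in G93A/G93A. All 3 G93A/WT arrays were above the other 5, with a difference from WT/WT of 0.66 (SE 0.14, adjusted p = 0.0489). miR-6960-5p, within the span of Troap (a spindle protein), had 3.58 and 3.36 in WT/WT, 2.77, 2.91 and 2.96 in G93A/WT, and 3.42, 3.44 and 3.39 in G93A/G93A. miR-6947-5p, within the span of Actr8 (a subunit of the INO80 chromatin remodeller), had 2.43 and 2.55 in WT/WT, 1.95, 1.94 and 1.72 in G93A/WT, and 2.40, 2.45 and 2.21 in G93A/G93A. In both, the 3 G93A/WT arrays were the lowest of the 8. The differences from WT/WT were -0.59 for miR-6960-5p (SE 0.11, adjusted p = 0.0407) and -0.62 for miR-6947-5p (SE 0.13, adjusted p = 0.0479).

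The median difference of the 86 members was 0.01, against 0.04 over all 538. G93A/WT lay above WT/WT without overlap for 22 members (background 19.3%) and below it for 26 (background 26.0%). With no scaling between arrays 27 members were higher and 0 lower (background 24.2%), miR-6960-5p and miR-6947-5p turned to 0.18 and 0.15, and the median over all 538 miRNAs moved to 0.79. Scaling on all miRNAs detected on each array gave 11 higher and 0 lower (background 7.81%). Quantile normalization gave 0 higher and 4 lower (background 2.97%), with 2 of the 5 calls kept, those of miR-6960-5p (-0.81, adjusted p = 0.0142) and miR-6947-5p (-1.26, adjusted p = 0.0436). The count was 1 without G93A/WT 3 (19 of all 538 miRNAs) and 2 without G93A/WT 2 or G93A/G93A 2. It was 4 without G93A/WT 1, 5 without G93A/G93A 1 and 14 without G93A/G93A 3 (background 11.3%). Without WT/WT 1 or WT/WT 2, 1 control array is left, and the members' median difference was 0.02 and -0.04. With the slide row as a block, which compares G93A/WT with WT/WT 1 alone, 1 member, miR-6990-5p, was called (adjusted p = 0.0362, background 2.97%). That member stood at the floor on every array outside G93A/WT and was tested through that group alone, so the block adds little to its call. The differences of the other 4 were 0.90 (miR-7015-5p), 0.59 (miR-6907-5p), -0.71 (miR-6960-5p) and -0.56 (miR-6947-5p), with adjusted p up to 0.181.

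The comparison of G93A/G93A with G93A/WT asks what changes when the cells of the insert carry the mutation too. It had the most calls: 11 members higher in G93A/G93A (background 5.39%) and 3 lower (background 5.20%, 10.6% in either direction). The 11 were miR-6946-5p, miR-6978-5p, miR-7075-5p, miR-6938-5p, miR-7022-5p, miR-7057-5p, miR-6960-5p, miR-6961-5p, miR-7011-5p, miR-6947-5p and miR-7056-5p, and the 3 were miR-7072-5p, miR-6990-5p and miR-6907-5p. The 26 members with an unadjusted p under 0.05 (background 32.2%) include these 14. The sequences not yet shown follow, and no seed is shared among the 14.
miR-6978-5p: aAGGGGUGagagagaagcuggug
miR-7075-5p: cGGGGAGGaggacaugguuuu
miR-7022-5p: cCUGGCAAggaagggcucuguuu
miR-7057-5p: cAGGAGAGgacucaaguu
miR-6961-5p: uGACUGGGaaggaaauggcc
miR-7011-5p: aGGAGGAUgggagagggaggugu
miR-7072-5p: gAGGGGAGacaagaggcaaggc

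miR-6978-5p, the brightest of them, had 8.77 and 8.86 in WT/WT, 8.37, 8.51 and 8.58 in G93A/WT, and 9.39, 9.33 and 9.09 in G93A/G93A. miR-7075-5p, within the span of Terf2 (a protein that caps telomeres), had 4.92 and 4.82 in WT/WT, 4.37, 4.45 and 4.43 in G93A/WT, and 5.28, 5.28 and 4.99 in G93A/G93A. In both, as in miR-6938-5p and miR-6946-5p, the groups did not overlap and stood in the order G93A/WT, WT/WT, G93A/G93A. G93A/G93A exceeded G93A/WT by 0.78 for miR-6978-5p (SE 0.11, adjusted p = 0.00519), by 0.76 for miR-7075-5p (SE 0.11, adjusted p = 0.00508), by 0.76 for miR-6938-5p (SE 0.10, adjusted p = 0.00345) and by 0.78 for miR-6946-5p (SE 0.09, adjusted p = 0.00195).

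In the next 6 members G93A/WT was again below every other array, while WT/WT and G93A/G93A overlapped. miR-6961-5p, within the span of Bin2 (a membrane-curving protein of blood cells), had 7.20 and 7.23 in WT/WT, 6.67, 6.76 and 6.77 in G93A/WT, and 7.39, 7.28 and 7.13 in G93A/G93A. miR-7011-5p, within the span of Sema4a (a semaphorin), had 8.09 and 8.15 in WT/WT, 7.81, 7.77 and 7.73 in G93A/WT, and 8.48, 8.36 and 8.06 in G93A/G93A. The difference of G93A/G93A from G93A/WT was 0.53 for each (SE 0.10 and 0.13, adjusted p = 0.0145 and 0.0379). miR-7022-5p, within the span of Fbxo6 (a ubiquitin ligase subunit that binds glycoproteins), had 2.31 and 2.28 in WT/WT, 1.86, 1.88 and 1.65 in G93A/WT, and 2.75, 2.54 and 2.29 in G93A/G93A. miR-7057-5p, within the span of Lrrk1 (a kinase of bone cells), had 3.16 and 2.99 in WT/WT, 2.47, 2.57 and 2.50 in G93A/WT, and 3.27, 3.02 and 2.95 in G93A/G93A. These 2 differed between the groups by 0.73 (SE 0.14, adjusted p = 0.0166) and 0.57 (SE 0.11, adjusted p = 0.0217). The last of the 6 were miR-6960-5p, whose difference was 0.54 (SE 0.10, adjusted p = 0.0154), and miR-6947-5p, whose difference was 0.48 (SE 0.11, adjusted p = 0.0372). miR-7056-5p, with G93A/G93A above the rest, differed by 0.43 (SE 0.10, adjusted p = 0.0372).

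The 3 lower members were dim. miR-7072-5p, within the span of Nlrc5 (a transactivator of MHC class I genes), was detected on the 3 G93A/WT arrays alone, at 1.59, 2.53 and 1.39, and entered the table through that group. G93A/G93A was at least 2.16-fold lower than G93A/WT for miR-7072-5p (adjusted p = 0.0308) and at least 1.81-fold lower for miR-6990-5p (adjusted p = 0.00169). miR-6907-5p, detected on all 8 arrays, was lower in G93A/G93A by a difference of -0.76 (SE 0.12, adjusted p = 0.00779).

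**Figure D2:**
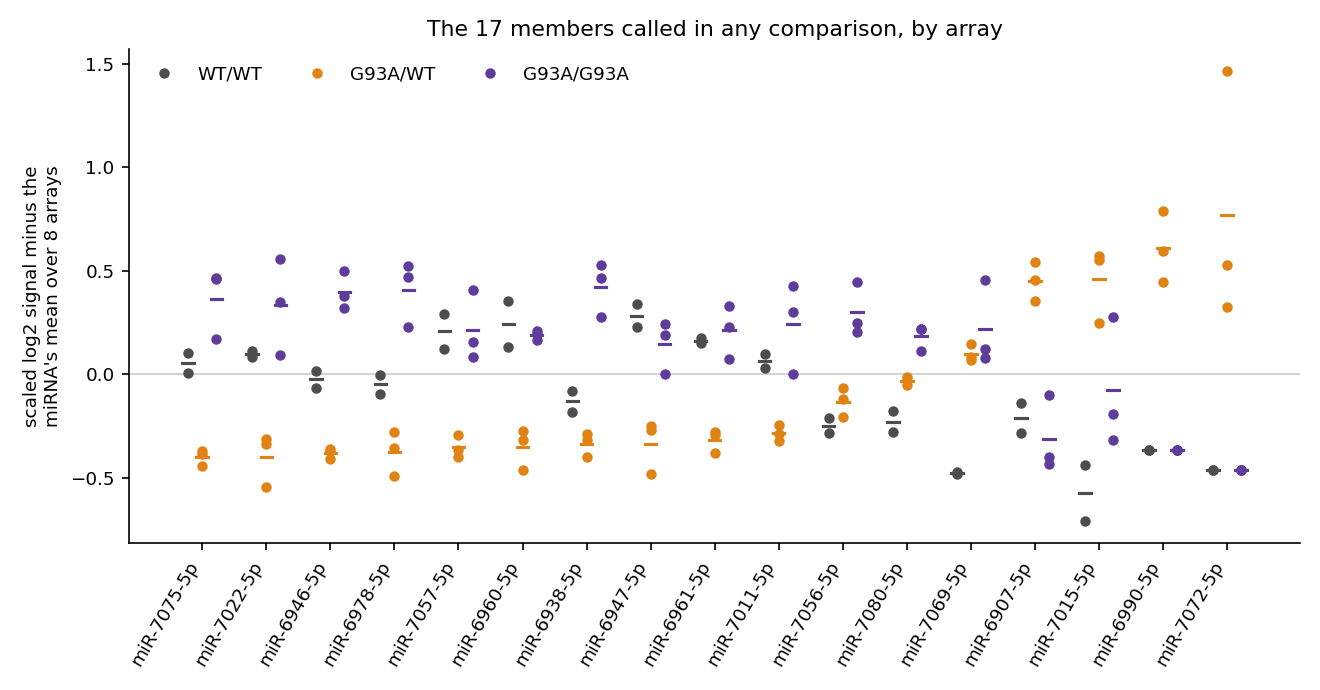
Scaled log2 signal of each of the 17 members called in any comparison, minus that member's mean over the 8 arrays, with 1 point per array and a bar at the mean of each group (2 WT/WT, 3 G93A/WT and 3 G93A/G93A arrays), ordered by the G93A/WT mean. In the 10 members at the left all 3 G93A/WT points lie below the other 5, and points of undetected miR-6990-5p and miR-7072-5p stand at the floor.

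The median difference of the 86 members was 0.07, against -0.10 over all 538. G93A/G93A lay above G93A/WT without overlap for 19 members (background 15.6%) and below it for 9 (background 19.1%). The direction of the split depended on the scaling, with 11 higher and 3 lower as reported, 0 higher and 14 lower with no scaling (background 27.7%) and 0 higher and 7 lower with scaling on all miRNAs detected on each array (background 14.9%). These settings moved the median over all 538 miRNAs to -0.68 and -0.34, so the 11 higher members are higher relative to most miRNAs. With no scaling the values of miR-6946-5p, miR-6938-5p, miR-6978-5p, miR-7075-5p and miR-7022-5p were 0.17, 0.15, 0.18, 0.16 and 0.12, with none called. The rest of the 11 turned negative with no scaling, from -0.18 (miR-7056-5p) to -0.039 (miR-7057-5p). The calls of miR-6946-5p, miR-6938-5p, miR-7075-5p, miR-6978-5p and miR-6907-5p, all detected on all 8 arrays, held without each array in turn. The call of miR-6990-5p also did, which shows little, since it was tested through G93A/WT alone and stood at the floor on the other 5 arrays. The count was 6 without G93A/G93A 2 (background 7.06%) and 24 without G93A/G93A 3 (background 22.7%). The groups share no slide row, and a fit with the row as a block, which links them through 1 WT/WT array each, called 0 of 538 miRNAs. In that fit the 14 differences kept their sign, and the adjusted p ran from 0.169 to 0.591.

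**Figure D3:**
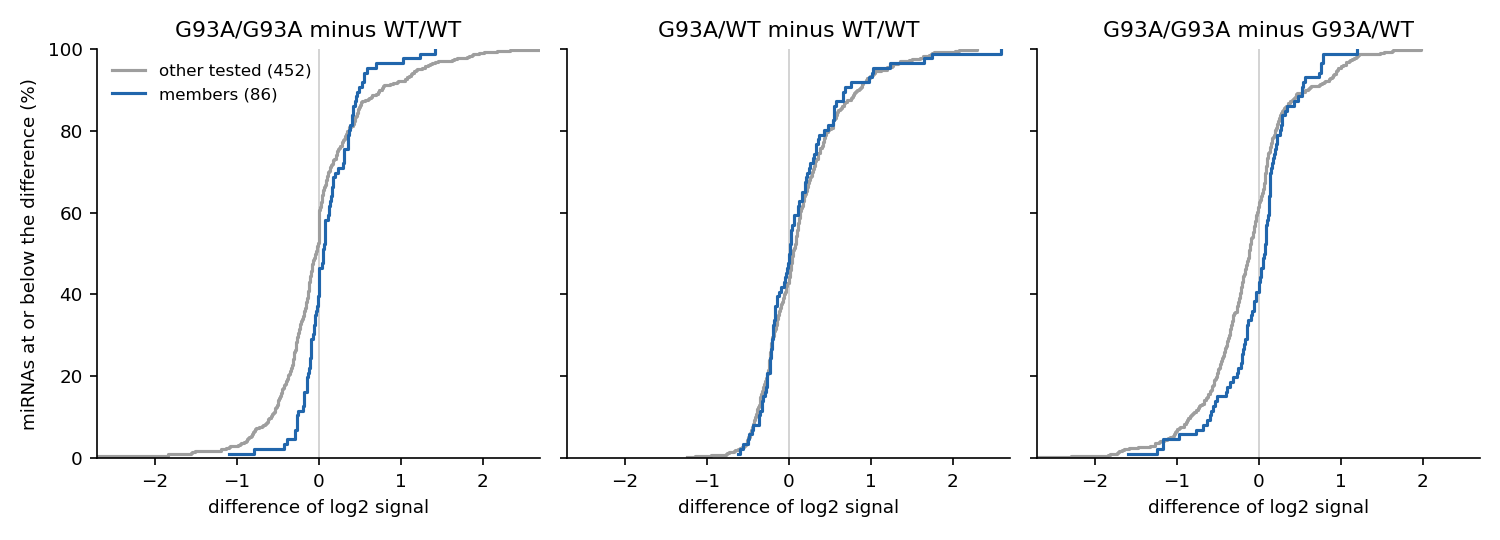
Cumulative share of miRNAs at or below each log2 difference, for the 86 members and the 452 other tested miRNAs, in the 3 comparisons, on an axis that leaves out the ends of the others. The members' curve crosses the middle at a median of 0.05, 0.01 and 0.07 from left to right. The lowest member stands at -1.10 in the left panel.

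Over the 73 members detected on all 8 arrays, the 3 G93A/WT arrays lay below the other 5 for 16 (background 11.1% of 423 miRNAs) and above them for 3 (4.26%). Besides the 10 called ones these 16 were miR-6934-5p, miR-6973b-5p, miR-6984-5p, miR-7036a-5p, miR-7045-5p and miR-7048-5p. The 3 G93A/G93A arrays lay above the rest for 7 (10.6%) and below them for 0 (8.04%). Both WT/WT arrays lay below the rest for 10 (5.91%), among them miR-7069-5p, miR-7015-5p, miR-7080-5p, miR-7056-5p and the neighbours miR-6921-5p and miR-6922-5p, and above them for 5 (13.5%), among them miR-7082-5p and miR-7050-5p.

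The direction of the G93A/WT difference went with brightness. Among the 24 brightest of the 73 members (means of 6.28 to 10.85) G93A/WT was above WT/WT for 6, with a median difference of -0.19. Among the 25 of the middle it was above for 11, with a median of -0.02, and among the 24 dimmest (2.20 to 3.89) for 16, with a median of 0.27. In G93A/G93A against G93A/WT the count above zero was 20 of 24, 15 of 25 and 13 of 24 in the same order, and in G93A/G93A against WT/WT 13, 14 and 14. Spearman's rho of the G93A/WT difference with the mean signal was -0.353 over 73 members and -0.280 over 350 other miRNAs detected on all 8 arrays, as a description over miRNAs that share arrays. The scale factors were lowest on G93A/WT. A scale factor shifts all members above the floor on an array alike, so it moves the counts above zero but not the rho. With no scaling the median G93A/WT difference from WT/WT over all members was 0.75, against 0.01 as scaled. The counts above zero therefore hold for the main scaling alone. What lies behind the trend with brightness was not tested.

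**Figure D4:**
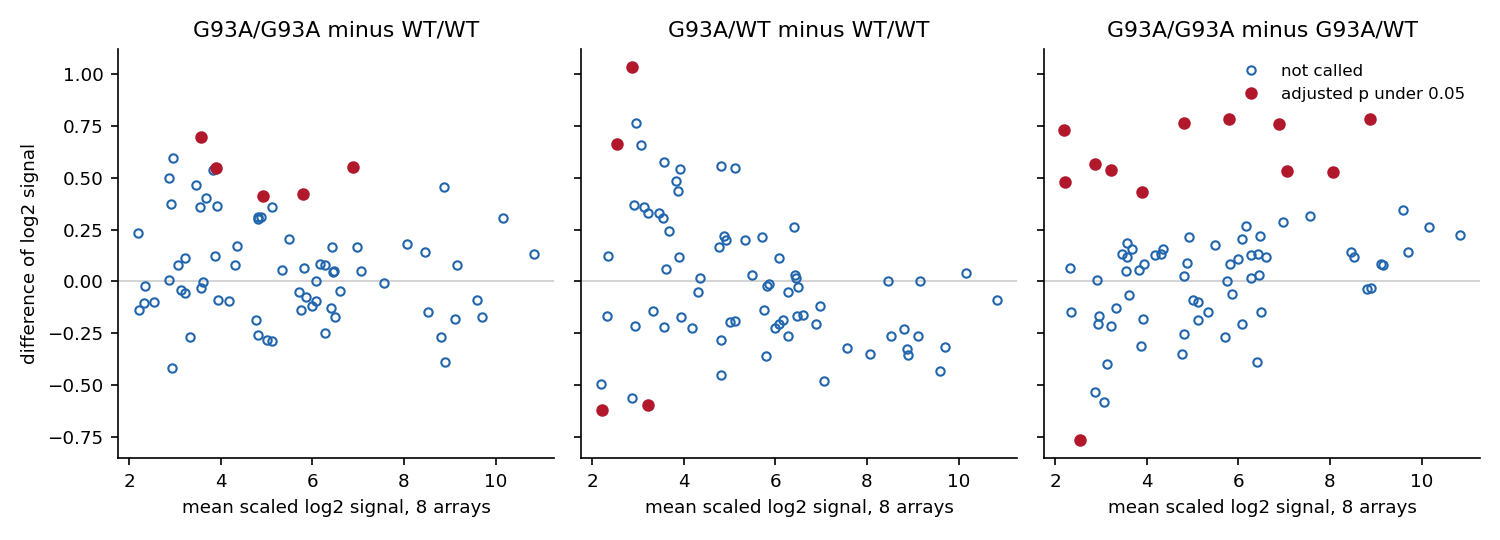
Log2 difference against the mean scaled log2 signal over 8 arrays for the 73 members detected on all 8 arrays, 1 panel per comparison, with members past an adjusted p of 0.05 filled. In the middle panel, G93A/WT minus WT/WT, 18 of the 24 brightest members lie below zero and 16 of the 24 dimmest above it. The place of zero depends on the scaling.

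Some dim members were detected on more arrays in G93A/WT, whose arrays also had the most detected miRNAs of all (497 to 563, against 450 to 483). miR-7060-5p, miR-6994-5p and miR-7072-5p are named because they were detected on all arrays of 1 group and none of another. Their pattern is thus a description. miR-7060-5p (within the span of Fbrs) was undetected on both WT/WT arrays, had 3.38, 3.15 and 3.02 in G93A/WT, and was undetected, 2.03 and 3.43 in G93A/G93A, where the spread between arrays was wide. G93A/WT was at least 5.26-fold higher than WT/WT (adjusted p = 0.0794), past no threshold. miR-6994-5p (Patl1, a protein of mRNA decay) was undetected in WT/WT, had 1.57, 1.72 and 1.55 in G93A/WT and was detected on G93A/G93A 3 alone of its group, at 1.87. miR-7072-5p, which was tested only through its detection in G93A/WT, was at least 2.06-fold higher there than in WT/WT (adjusted p = 0.0653). miR-7032-5p, which shares its seed with miR-6990-5p, was undetected and 1.71 in WT/WT, 2.80, 2.93 and 2.69 in G93A/WT, and 3.02, undetected and 2.92 in G93A/G93A. All 4 were detected on each G93A/WT array. miR-7082-3p ran the other way, being detected on 2 G93A/G93A arrays and 1 G93A/WT array.

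The 2 arms of miR-7082 could be set side by side as differences between groups, not as levels. The 5p arm had 9.87 and 9.90 in WT/WT, 9.71, 9.47 and 9.52 in G93A/WT, and 9.77, 9.82 and 9.53 in G93A/G93A, and both WT/WT arrays were above the other 6. Its differences were -0.17 (SE 0.13, adjusted p = 0.456) for G93A/G93A and -0.31 (SE 0.13, adjusted p = 0.2) for G93A/WT against WT/WT. The 3p arm was detected on G93A/WT 3 (0.69), G93A/G93A 1 (3.31) and G93A/G93A 2 (1.58), and its difference of G93A/G93A from G93A/WT was 1.20 (SE 0.61, adjusted p = 0.212). Neither arm was called, and the spread of the 3p arm was too wide to compare them.

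Seed pairs did not share a pattern that passed the test. miR-6990-5p was called and miR-7032-5p was not, with detection on all G93A/WT arrays for each. miR-6916-5p had 4.75 and 4.24 in WT/WT, 5.33, 5.05 and 4.77 in G93A/WT, and 4.20, 5.02 and 5.16 in G93A/G93A. Its partner miR-6942-5p had 2.41 and 2.45 in WT/WT, 2.33, 2.30 and 2.15 in G93A/WT, and 2.63, 2.29 and 2.06 in G93A/G93A. Neither of these 2, nor miR-7047-5p and miR-6965-5p, was called in any comparison.

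The other 69 members were called in none of the 3 comparisons. Over the 58 of them detected on all 8 arrays the difference ran from -0.42 to 0.59 for G93A/G93A against WT/WT, from -0.43 to 0.76 for G93A/WT against WT/WT, and from -0.58 to 0.34 for G93A/G93A against G93A/WT, and it was within 0.2 of zero for 38, 27 and 40. At the ends stood miR-7049-5p (-0.42, SE 0.30) and miR-6922-5p (0.59, SE 0.27) in the first of these, miR-7045-5p (-0.43, SE 0.14) and miR-6922-5p (0.76, SE 0.27) in the second, and miR-6926-5p (-0.58, SE 0.35) in the third. miR-6926-5p had 3.41 and 2.18 in WT/WT, 3.48, 3.49 and 3.41 in G93A/WT, and 2.58, 2.60 and 3.45 in G93A/G93A, so its arrays of 1 group were farther apart than the group means. The SE reached 0.40 in the comparisons with WT/WT, so differences of the size called in other members were not detectable for the most variable ones.

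miR-6922-5p, the member of the Srebf1 pair with the larger differences from WT/WT, had 2.48 and 2.42 in WT/WT, 3.38, 3.19 and 3.07 in G93A/WT, and 3.27, 2.48 and 3.38 in G93A/G93A. miR-6921-5p had 3.44 and 3.42 in WT/WT, 3.79, 3.69 and 3.55 in G93A/WT, and 3.68, 4.00 and 3.83 in G93A/G93A. Both WT/WT arrays were the lowest of the 8 for each of this pair, though for miR-6922-5p G93A/G93A 2 equalled WT/WT 1 to 2 decimals, and neither miRNA was called. miR-6982-5p had 3.54 and 3.36 in WT/WT, 4.08, 3.89 and 3.83 in G93A/WT, and 3.82, 4.21 and 3.92 in G93A/G93A, with differences from WT/WT of 0.53 in G93A/G93A (SE 0.15, adjusted p = 0.078) and 0.48 in G93A/WT (SE 0.15, adjusted p = 0.112).

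On the low side of G93A/G93A against WT/WT, miR-7052-5p (within the span of the deubiquitinase gene Josd2) and miR-7005-5p (Lama5, a basement membrane laminin chain) were lower on every G93A/G93A array without being called. miR-7052-5p had 5.39 and 5.22 in WT/WT and 5.07, 5.03 and 4.96 in G93A/G93A, and miR-7005-5p had 5.25 and 5.11 against 4.88, 5.05 and 4.76. Their differences were -0.29 (SE 0.11, adjusted p = 0.162) and -0.28 (SE 0.13, adjusted p = 0.208). Against G93A/WT, miR-7042-5p was lower on every G93A/G93A array, at 6.02, 6.38 and 6.27 after 6.74, 6.54 and 6.55, also without a call (-0.39, SE 0.16, adjusted p = 0.149).

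Some members varied between arrays of 1 group more than between groups. The lowest 2 arrays were G93A/WT 2 and 3 for 14 of the 73 members and for 31 of 350 other miRNAs detected on all 8 arrays. They were WT/WT 1 and 2, of different slide rows, for 10 members and 15 others. WT/WT 2 and G93A/G93A 1, both of slide row 2, were the lowest 2 for another 10 members and for 41 others. One of this last set, miR-7089-5p, had 4.95 and 4.61 in WT/WT, 5.62, 5.31 and 5.06 in G93A/WT, and 4.42, 5.23 and 5.77 in G93A/G93A. miR-7044-5p had 6.32 and 5.80 in WT/WT, 6.48, 6.06 and 5.99 in G93A/WT, and 5.53, 6.29 and 6.09 in G93A/G93A. In each of these the 3 groups overlapped. G93A/WT 3 was the lowest array for 21 of the 73 members (28.8%) and the highest for 0. Over the 350 others it was the lowest for 55 (15.7%) and the highest for 23 (6.57%).

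Of the 13 members detected on 2 to 7 arrays, 3 are not yet described. miR-6935-5p, detected on 7, had 3.49 and 1.82 in WT/WT, 2.92, 2.65 and 1.59 in G93A/WT, and was undetected, 2.27 and 2.75 in G93A/G93A. miR-7081-5p (within the span of the DNA methyltransferase gene Dnmt1) had 2.26 and 1.83 in WT/WT, 1.91, 2.68 and 1.74 in G93A/WT, and was detected on G93A/G93A 3 alone of its group, at 1.64. miR-7085-5p (Slc37a4, a glucose-6-phosphate transporter) was undetected and 1.75 in WT/WT, 2.98, 3.00 and 2.77 in G93A/WT, and undetected on 2 of 3 G93A/G93A arrays, with 2.76 on the other. None of the 3 was called.

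Mirtrons outside the number range were read from a separate list of miR-877, miR-1224 and miR-702. The 5p arms of miR-877 and miR-1224 were detected on all 8 arrays, and their 3p arms and both arms of miR-702 on none. miR-1224-5p had means of 13.12 ± 0.01 in WT/WT, 12.61 ± 0.05 in G93A/WT and 12.67 ± 0.14 in G93A/G93A (SD, n = 2, 3 and 3). Its differences from WT/WT were -0.51 (SE 0.11, adjusted p = 0.053) in G93A/WT and -0.45 (SE 0.11, adjusted p = 0.0634) in G93A/G93A, and none of the list was called.

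Some markers of other cells moved with the groups beside these results, and others did not. The epithelial miRNAs miR-205-5p, miR-203-3p and miR-200c-3p all 3 had less signal in G93A/G93A, both against WT/WT (adjusted p = 0.00301, 0.00301 and 0.00306) and against G93A/WT (0.00202, 0.00519 and 0.00314). Their summed scaled signal was 123 to 148 in WT/WT, 53.7 to 73.0 in G93A/WT and 0 to 5.36 in G93A/G93A, where miR-203-3p and miR-200c-3p were undetected on every array. The leukocyte miRNA miR-223-3p was higher in G93A/G93A than in WT/WT by 0.52 (SE 0.12, adjusted p = 0.0433), with a scaled signal of 99.3 to 107 in WT/WT and 131 to 159 in G93A/G93A. The erythroid and serum miRNAs miR-451a and miR-486a-5p were called in no comparison. They differed between G93A/G93A and WT/WT by 0.24 (SE 0.19, adjusted p = 0.483) and -0.29 (SE 0.13, adjusted p = 0.19). None of the muscle miRNAs named above was called. The part of any of these cells in the members' differences was not tested.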

How the data were processed

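Small RNA from co-culture medium was read on 8 Agilent 1-colour mouse miRNA arrays. Per the file headers, the deposited scanner files give the total gene signal as an intensity on a linear scale, with an error and a flag for detection. A table of the authors' own intensity values was deposited too, normalized in a way not given in the sources used here. An undetected miRNA is listed at 0.1 in the scanner files.

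Each array was scaled to an equal 75th percentile over the 423 miRNAs detected on all 8 arrays, a floor of 1.52 (log2 0.60) was set, and log2 was taken. A detected signal under the floor also stands at the floor. The 538 miRNAs detected on at least 2 arrays were fitted with limma 3.58.1 (R 4.3.3; lmFit, eBayes, 1 spread for the 3 groups; Benjamini-Hochberg adjustment, threshold 0.05), after a test on simulated data. A fold given as "at least" sets one group's mean against the mean, in the other, of each array's lowest detected signal. It is approximate, since detection is judged per miRNA. Undetected arrays have identical floor values, which can make the adjusted p of such a miRNA too small. With 2 or 3 arrays in a group, few arrays limit the precision, and the p-values measure the spread between these samples.

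The members, the lists and the rule for naming were chosen with earlier results of these data known. Named are members called in any comparison, the 10 brightest and 5 dimmest, precursors with both arms, members detected on all arrays of 1 group and none of another, the 5 largest and smallest differences per comparison among members on all 8 arrays, and miRNAs at the detection limit. Members named for a shared seed, a shared host or a place among the groups, or for missing sequences, fall outside this rule and were chosen after their values were seen. Alternatives changed the scaling, the floor, the miRNAs tested, the values used, the blocks and the arrays.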

Additional observations from a re-analysis of the deposited data

How the results depend on the processing

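The counts of called members in the comparisons of G93A/G93A with WT/WT, of G93A/WT with WT/WT and of G93A/G93A with G93A/WT, in this order, were 5, 5 and 14. Leaving out 1 array at a time gave 0 to 6, 0 to 14 and 6 to 24. They were 0, 11 and 7 with scaling on all miRNAs detected on each array, 0, 27 and 14 with no scaling, and 0, 1 and 0 in a fit with slide row as a block. Over all 538 miRNAs, 10, 42 and 80 were called with scaling on all miRNAs detected on each array, and 14, 130 and 149 with no scaling. Inside single rows, which hold 1 WT/WT array each, the members' median difference was 0.09 in the first and -0.04 in the second comparison. In the following, brackets hold the number called over all miRNAs tested in that setting. The first count was 0 with scaling on the median (33 of 538) or with only the 2 groups compared (17 of 538). It was 3 with each array's own floor (39 of 538) or with testing where detected on all 8 arrays (29 of 423). The second was 10 with the floor at 2 times its value (34 of 538). It was 8 with testing where detected on at least 1 array (37 of 586) or on all arrays of a group (39 of 492). Each array's own floor (8 of 538), testing where detected on all 8 arrays (0 of 423) and the authors' processed values (5 of 492) gave 0. Trended and robust eBayes gave 1 (21 of 538), and only the 2 groups compared gave 11 (43 of 538). The third was 9 with the authors' processed values (45 of 492). Without G93A/WT 1, G93A/WT 2, G93A/G93A 1 or G93A/G93A 2, the second comparison called 34, 11, 23 and 17 of all 538 miRNAs. An alternative added after seeing the data centred the number range and the rest each. With it the counts of called members were 0, 2 and 8 (34, 17 and 47 of 538). The cause of these shifts was not tested, apart from the fewer miRNAs tested or arrays used where the setting says so.

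The median difference of the members left its main value by more than the spread between replicates (0.133) under a pair of settings. It was 0.20, 0.41 and -0.19 with scaling on all miRNAs detected on each array, and 0.22, 0.75 and -0.54 with no scaling. Leaving out 1 array at a time, it ran from 0.01 to 0.09, from -0.04 to 0.04 and from 0.01 to 0.13. The number of members detected was the same on every array with a signal above 3 times its error, so this rule is no separate check of the detection flag.

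With no scaling, some named members turned: in G93A/G93A against G93A/WT miR-6947-5p to -0.13, miR-6960-5p to -0.068, miR-6961-5p to -0.075, miR-7011-5p to -0.078, miR-7056-5p to -0.18 and miR-7057-5p to -0.039, and in G93A/WT against WT/WT miR-6947-5p to 0.15, miR-6960-5p to 0.18, miR-6961-5p to 0.29, miR-7022-5p to 0.28 and miR-7057-5p to 0.21. With the slide row as a block, miR-6926-5p turned to 0.65 and miR-7042-5p to 0.077 in G93A/G93A against G93A/WT. Of 583 recomputed values of the 24 called differences, 337 kept direction and call, 238 kept the direction and lost the call, and 8 reversed.

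Replicate numbers were not taken to pair the samples, since the labels state no pairing. In their deviations from the group means, same-numbered arrays correlated at r = -0.31 to 0.31 and differently numbered ones at -0.36 to 0.43. Deviations within so small a group are tied to each other, so these values can neither show nor exclude pairing. With the replicate number as a block, the counts of called members were 0, 0 and 8, where 10, 8 and 37 of all 538 miRNAs were called.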
